A study of Mus musculus with 2 samples.

Results

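The 10 genes described here encode antiviral effectors that type I interferon induces in most cells: Ifit1, Ifit2, Ifit3, Oasl1, Oasl2, Isg15, Isg20, Rsad2, Usp18 and Rtp4. They were picked by symbol from a table of 46511 gene rows (46398 distinct symbols), and all 10 had 1 row in each library. The proposal to look at them was made with the values of this same contrast in view, so the differences below are a description of 2 libraries and carry no test. The study sequenced poly(A) RNA from effector regulatory T cells (effector Treg cells), a Foxp3-expressing CD4 T cell population with an activated surface phenotype that restrains other immune cells. There was 1 library per genotype: Nrn1+/-, heterozygous for the gene of the cell-surface protein neuritin and titled wild type by the submitters, and Nrn1-/-, its null counterpart. Mice of both were on a C57BL/6 background and carried Foxp3DTRgfp, an allele that places a diphtheria toxin receptor and green fluorescent protein under Foxp3. From each, cells positive for CD4, CD25 and Foxp3-gfp, low for CD62L and high for CD44, were sorted. The age of the mice, how many gave cells to a library and the design of the null allele were not stated by the submitters' labels.

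Type I interferons are recognised by a receptor of IFNAR1 and IFNAR2 chains, whose kinases JAK1 and TYK2 activate STAT proteins, among them STAT2. With IRF9, STAT2 is part of a factor that binds interferon-stimulated response elements in the promoters of its target genes. Lymphocytes keep a low, tonic level of many of these genes without infection, and virus or added interferon raises them strongly. The products act at different points: IFIT proteins bind foreign RNA, OASL proteins belong to the oligoadenylate synthetase family, ISG15 is a ubiquitin-like modifier that USP18 removes, ISG20 degrades RNA, viperin (Rsad2) makes a chain-terminating nucleotide, and RTP4 is a chaperone that also binds viral RNA.

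Values are FPKM, a fragment number divided by transcript length and library size, and pairs of values give Nrn1+/- first. Nrn1 itself stood at 66.5 FPKM with Nrn1+/- against 4.62 FPKM with Nrn1-/-, the order the labels give. The 10 marker genes of the sorted cells, among them Foxp3, Il2ra and Cd4, spanned 62.4 to 608 FPKM with Nrn1+/- and 54.4 to 564 FPKM with Nrn1-/-. Low values come in steps, from which a single fragment on 1 kb counts for about 0.019 FPKM (Nrn1+/-) or 0.0247 FPKM (Nrn1-/-), 1.30 times as much. A 2 kb transcript at 5 FPKM would then rest on about 466 and 358 fragments. These steps give each ratio a 95% interval that covers counting error only; PCR copies were not marked, so 1 molecule may be counted more than once. Without replicate libraries the spread between mice is unknown, and in bulk RNA fewer cells making a transcript cannot be told apart from less of it per cell.

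All 10 effector genes were lower in the Nrn1-/- library. The FPKM ratio without a pseudocount ran from 1.26-fold lower for Isg20 to 2.57-fold lower for Rsad2, with a median of 1.86-fold. Their FPKM summed to 234 with Nrn1+/- and 147 with Nrn1-/-. On the log2((Nrn1-/- + 1)/(Nrn1+/- + 1)) scale, which damps the difference of weakly expressed genes, 9 of the 10 passed a filter of a mean of at least 1 FPKM and 4 of these (Ifit1, Ifit3, Oasl2 and Rtp4) were at least 1.5-fold lower. Of all 12344 genes past that filter 5.27% were at least 1.5-fold lower and 7.5% at least 1.5-fold higher, and 47.7% were lower by any amount; among the protein-coding genes alone 3.69% were at least 1.5-fold lower. The median log2 ratio was -0.53 over the 9 genes and 0.02 over all genes. Of the 9, Oasl1 passed the filter only through its Nrn1+/- value, 1.70 FPKM against 0.921 FPKM with Nrn1-/-. Because this contrast chose the genes, nothing is read from their count.

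**Figure D1:**
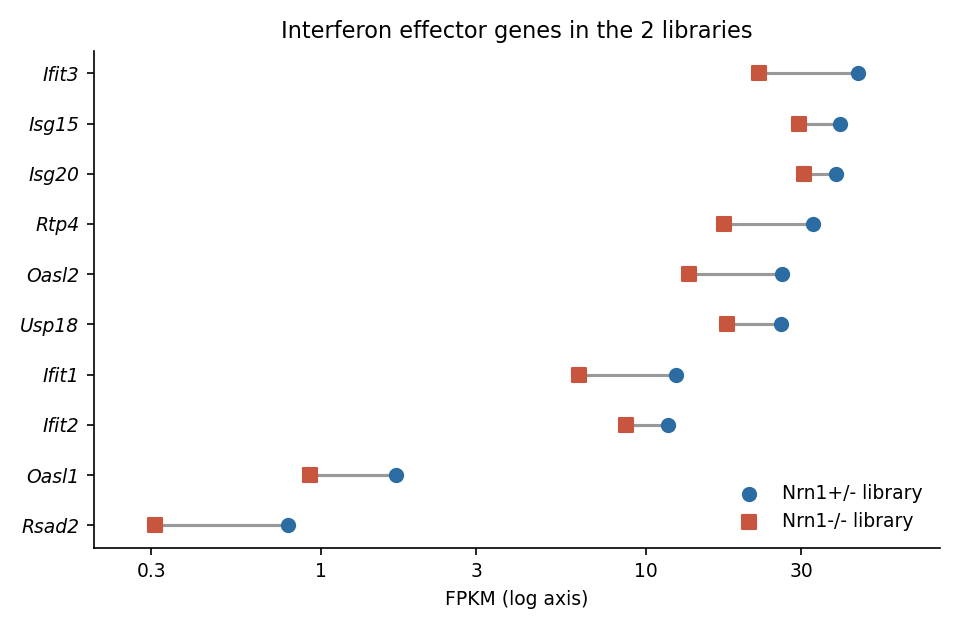
FPKM (log axis) of each of the 10 interferon effector genes in the Nrn1+/- library (blue circles) and the Nrn1-/- library (red squares), 1 library per genotype, ordered by level in the Nrn1+/- library. The red square lies to the left of the blue circle in all 10 genes, and Oasl1 and Rsad2 lie far below the others.

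The IFIT genes form a cluster on chromosome 19 (positions of genes are the deposited intervals on GRCm38). Ifit3 (ENSMUSG00000074896.3, chr19:34583531-34588731, plus strand) encodes a partner that stabilises RNA binding by other IFIT proteins. It was the most abundant of the 10 genes in the Nrn1+/- library (44.9 FPKM) and was at 22.2 FPKM with Nrn1-/-, 2.02-fold lower with a counting interval of 1.90 to 2.15-fold. Ifit1 (ENSMUSG00000034459.8, chr19:34640871-34650009, plus strand), whose product holds RNA with foreign end structures, was at 12.4 and 6.19 FPKM, 1.998-fold lower (1.82 to 2.20). Ifit2 (ENSMUSG00000045932.11, chr19:34550694-34576419, plus strand), whose product also binds RNA, differed less, at 11.6 and 8.64 FPKM or 1.35-fold lower (1.26 to 1.44). The counting interval of Ifit2 does not reach those of Ifit1 and Ifit3, although Ifit2 and Ifit1 had similar levels in the Nrn1+/- library.

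Ifit1 and Ifit3, with the larger differences of the 3, are shown with the bases around their annotated start sites, from 250 bases before to 50 after, because both hold letters of the interferon-stimulated response element. Sequences are RefSeq promoters on GRCm38.p6, written 5′ to 3′ on the gene's strand (Ifit1 chr19:34640639-34640938 and Ifit3 chr19:34583279-34583578, both plus). Capitals mark each match to the response element core GAAANNGAAA, which reads TTTCNNTTTC on the other strand.
Ifit1: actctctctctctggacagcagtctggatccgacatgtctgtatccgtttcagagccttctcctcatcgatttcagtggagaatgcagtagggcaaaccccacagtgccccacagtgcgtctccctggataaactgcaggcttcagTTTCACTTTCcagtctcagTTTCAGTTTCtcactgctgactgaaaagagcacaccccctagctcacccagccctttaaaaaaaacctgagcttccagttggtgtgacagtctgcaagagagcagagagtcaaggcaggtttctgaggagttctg
Ifit3: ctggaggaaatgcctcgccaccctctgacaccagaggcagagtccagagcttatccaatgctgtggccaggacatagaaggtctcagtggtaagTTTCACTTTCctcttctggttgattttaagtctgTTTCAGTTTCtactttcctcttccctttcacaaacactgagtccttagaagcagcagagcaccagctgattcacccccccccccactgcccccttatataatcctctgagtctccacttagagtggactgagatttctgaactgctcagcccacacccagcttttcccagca
Ifit1 held 2 matches, beginning 104 and 85 bases before its start site, and Ifit3 held 2, beginning 156 and 122 bases before. Both genes carried TTTCACTTTC farther from the start and TTTCAGTTTC nearer to it, as read on the gene's strand. The promoters listed for Ifit2, at 2 start sites, held no match within their 300 bases. At the second of these sites, position 34551088, the bases after the start were not found in a GENCODE transcript of Ifit2. Elements outside these windows were not searched, so the gene is not shown to lack one.

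Fragments of near-identical genes can be assigned to the wrong copy, and this touches Ifit3 most. Of the 50-base windows in its transcript 51.2% also occur in Ifit3b, a neighbouring copy at 5.84 FPKM with Nrn1+/- against 2.64 FPKM with Nrn1-/-. The single values of Ifit3 and Ifit3b are uncertain for that reason, but their sum was 50.8 and 24.9 FPKM, 2.04-fold lower. Ifit1 shared 7.13% of its windows, mostly with Ifit1bl2, which was under 1 FPKM in both libraries. Ifit2 shared none. Ifit1bl1, a further IFIT gene between Ifit3 and Ifit3b, was at 19.1 and 10.6 FPKM, 1.80-fold lower. Thus of the 6 IFIT genes in the cluster 5 were expressed above 1 FPKM, and all 5 were lower in the Nrn1-/- library.

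The OASL genes lie side by side on chromosome 5. Oasl2 (ENSMUSG00000029561.16, chr5:114896936-114912234, plus strand), which in mice has kept synthetase activity, stood at 26.1 FPKM with Nrn1+/- against 13.5 FPKM with Nrn1-/-, 1.93-fold lower (1.82 to 2.05). Oasl1 (ENSMUSG00000041827.14, chr5:114917318-114937915, plus strand), which lacks that activity and is known for holding back translation of Irf7 mRNA, was at only 1.70 and 0.921 FPKM. Its ratio of 1.85-fold lower had a wide counting interval, 1.38 to 2.45, since it rested on about 169 and 71 fragments. The pseudocount brings Oasl1 to a log2 ratio of -0.49, short of 1.5-fold, which is why it is not among the 4. An antisense row, Gm13822, overlaps Oasl1 at under 1 FPKM in both libraries, and the labels do not say whether counting used strand. The RefSeq promoters of Oasl1 and Oasl2 held no match to the response element core in their 300 bases.

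Genes of the ISG15 system differed less than Ifit1, Ifit3 and Oasl2. Isg15 (ENSMUSG00000035692.6, chr4:156199424-156200818, minus strand) encodes the modifier itself and was at 39.6 FPKM with Nrn1+/- against 29.5 FPKM with Nrn1-/-, 1.34-fold lower (1.21 to 1.48). Usp18 (ENSMUSG00000030107.10, chr6:121245906-121272685, plus strand) encodes the protease that takes ISG15 off its targets and also sits on IFNAR2, where it dampens signalling. It was at 26.0 and 17.7 FPKM, 1.46-fold lower (1.36 to 1.58), so its counting interval includes 1.5-fold. A long noncoding RNA row with the same deposited interval as Usp18, RP23-27C9.6, stood at 2.02 and 0.434 FPKM, and reads from overlapping parts cannot be told apart where strand is not used.

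The Isg15 promoter (chr4:156200769-156201068, minus strand, GRCm38.p6) is shown because its matches overlap, unlike those of Ifit1 and Ifit3.
Isg15: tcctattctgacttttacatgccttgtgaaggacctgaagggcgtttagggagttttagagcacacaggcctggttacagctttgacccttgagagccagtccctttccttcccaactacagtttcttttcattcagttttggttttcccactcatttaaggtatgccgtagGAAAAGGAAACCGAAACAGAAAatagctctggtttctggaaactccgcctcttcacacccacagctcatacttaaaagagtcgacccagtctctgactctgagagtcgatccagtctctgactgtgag
It held 3 matches on the gene's own strand, beginning 78, 72 and 66 bases before the start site, and each runs into the next. With 3 matches it had the most of the 8 genes that could be looked up, while its ratio was the second smallest of the 10.

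Of the enzymes that attach ISG15, Uba7, which activates it, was at 114 FPKM with Nrn1+/- against 64.2 FPKM with Nrn1-/-. Herc6, the main ligase in mice, was at 11.9 and 7.01 FPKM, 1.70-fold lower. The carrier Ube2l6 (22.5 and 24.8 FPKM) and the ligase Trim25 (18.6 and 19.8 FPKM) were slightly higher, a direction that turned for both when libraries were rescaled to a sum of 1000000 and for Trim25 also with equal sums over protein-coding rows. Modifier, protease, activating enzyme and Herc6 were thus lower, while carrier and Trim25 were close to equal.

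Among the 3 remaining effectors, Rtp4 (ENSMUSG00000033355.5, chr16:23609919-23614222, plus strand) stood at 32.5 FPKM with Nrn1+/- against 17.4 FPKM with Nrn1-/-, 1.87-fold lower (1.67 to 2.10). Isg20 (ENSMUSG00000039236.17, chr7:78913424-78920362, plus strand), the RNA exonuclease, was at 38.4 and 30.6 FPKM. That is 1.26-fold lower (1.13 to 1.40), the smallest of the 10 ratios, and it made Isg20 the most abundant of the 10 genes in the Nrn1-/- library, where Ifit3 came only after Isg20 and Isg15. Isg20l2, listed with the paralogs of the effectors, was higher at 32.4 and 38.05 FPKM, and turned direction at a sum of 1000000.

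Rsad2 (ENSMUSG00000020641.14, chr12:26442753-26456452, minus strand) had the lowest level of the 10 at 0.792 and 0.309 FPKM. It was the one gene under the filter of 1 FPKM, and its 2.57-fold ratio rested on about 148 and 44 fragments (counting interval 1.84 to 3.71). Its promoter (chr12:26456403-26456702, minus strand, GRCm38.p6) is printed as the case with a single match, which begins 120 bases before the start site.
Rsad2: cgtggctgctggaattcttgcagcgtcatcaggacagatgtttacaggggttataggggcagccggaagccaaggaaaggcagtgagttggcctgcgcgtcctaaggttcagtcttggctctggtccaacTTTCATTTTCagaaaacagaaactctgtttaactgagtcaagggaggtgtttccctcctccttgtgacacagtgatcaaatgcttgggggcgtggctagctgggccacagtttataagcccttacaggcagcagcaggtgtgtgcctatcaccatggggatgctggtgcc
Cmpk2, a kinase gene that lies next to Rsad2 and is likewise induced by interferon, was at 2.35 and 1.32 FPKM. Both genes of this pair were thus weakly expressed and lower in the Nrn1-/- library.

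**Figure D2:**
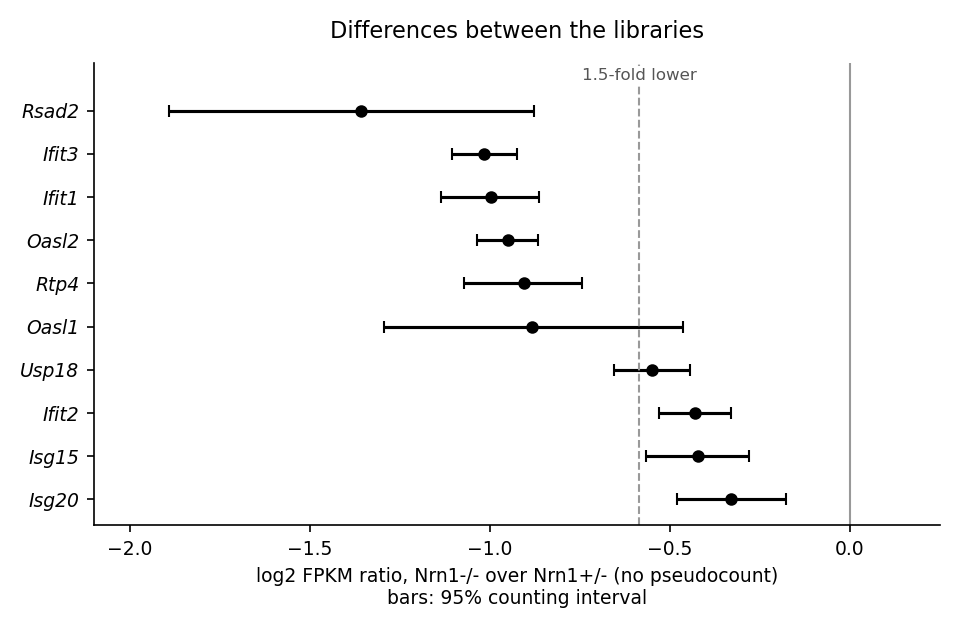
Log2 FPKM ratio of the Nrn1-/- over the Nrn1+/- library without a pseudocount for the 10 genes, with 95% counting intervals as bars, a solid line at no difference and a dashed line at 1.5-fold lower. All 10 intervals lie below 0, and 5 (Rsad2, Ifit3, Ifit1, Oasl2 and Rtp4) lie wholly beyond 1.5-fold.

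Without a pseudocount 6 were at least 1.5-fold lower, against 17.2% of all genes above 0 in both libraries and 7.8% of those also past the filter. Of the 6, Rsad2 and Ifit3 were at least 2-fold lower, as were 7.6% of all genes above 0 in both. In the order Rsad2, Ifit3, Ifit1, Oasl2, Rtp4, Oasl1, Usp18, Ifit2, Isg15 and Isg20 each counting interval overlaps that of its neighbour, while those of the first 5 and the last 4 do not meet. The order by ratio was not the order by level: Ifit3 and Isg15 were the most abundant in the Nrn1+/- library and lay at 2.02 and 1.34-fold. At 25 FPKM or more stood 6 of the genes with Nrn1+/- and 2, Isg15 and Isg20, with Nrn1-/-.

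**Figure D3:**
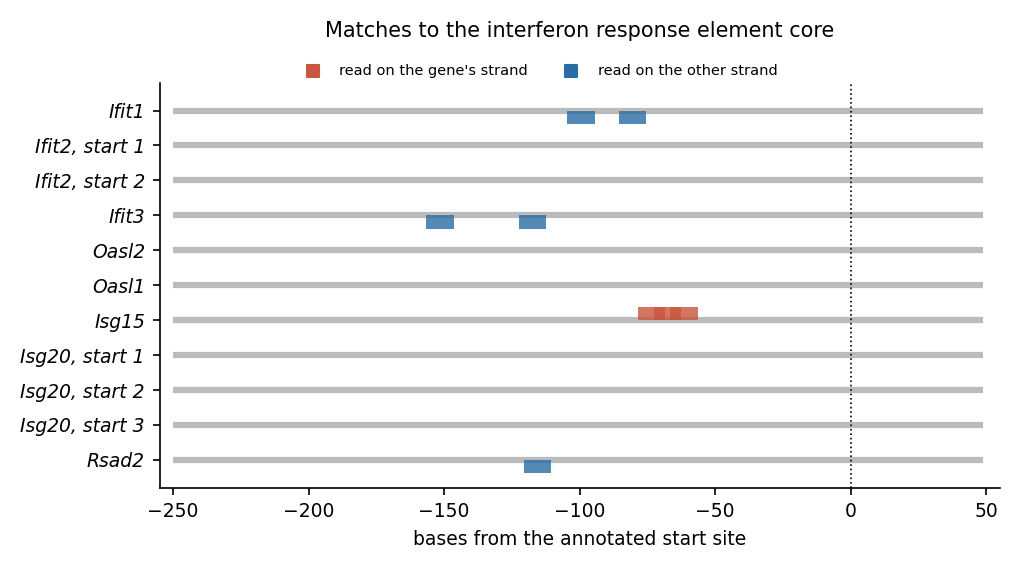
Matches to GAAANNGAAA in the 11 RefSeq promoters of 8 of the genes, placed by distance in bases from the annotated start site (dotted line), with red boxes above the line for the gene's strand and blue boxes below it for the other. Matches lie between 156 and 57 bases before the start of Ifit1, Ifit3, Isg15 and Rsad2, and the other 7 promoters have none.

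The response element core was found in at least 1 promoter of 4 of the 8 genes with an entry (Ifit1, Ifit3, Isg15 and Rsad2). In all, 3.44% of the 32851 promoters in the RefSeq table and 3.99% of its 27025 genes hold a match on either strand. Usp18 and Rtp4 have no entry. The gamma-activated site TTCNNNGAA reads the same on both strands and is known from the interferon gamma response. It occurred in promoters of 2 of the 8 genes, Ifit2 and Isg20, both of which have several promoters listed. In all, 8.3% of promoters and 9.55% of genes hold it. These matches are letters in a fixed window. They are not measured binding, and the 4 genes with a response element core included both large (Rsad2, Ifit3, Ifit1) and small (Isg15) ratios.

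**Figure D4:**
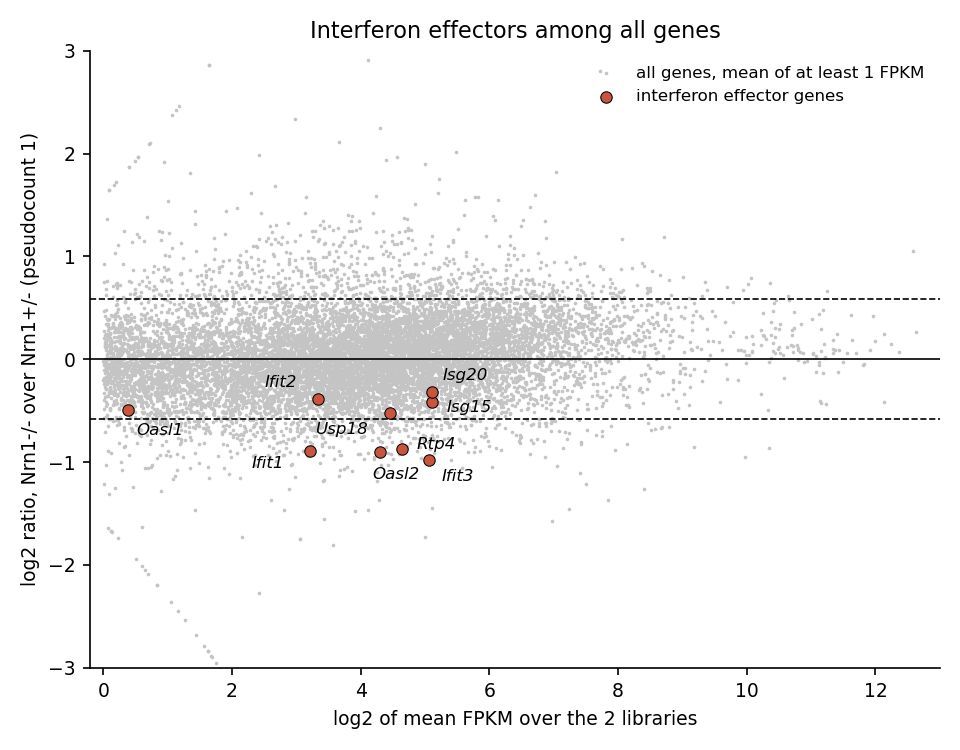
Log2 ratio with a pseudocount of 1 FPKM against log2 mean FPKM for the 12344 genes past the filter (grey) and the 9 effector genes among them (red), with dashed lines at 1.5-fold and 108 genes outside the plotted range of 3 in either direction. All 9 lie below 0, and Ifit1, Ifit3, Oasl2 and Rtp4 lie below the lower dashed line.

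How far the rest of the pathway shared the direction was looked at in lists of other genes. The lists were drawn up with earlier results of these data known, and none was tested. Beside them stand the 5.27% of all genes at least 1.5-fold lower, or 3.69% of protein-coding genes, and the median of 0.02 over all genes. The interferon genes themselves gave no signal to follow: of 20 type I and type III interferon genes 17 were listed at 0 in both libraries, and none reached 0.05 FPKM. By contrast Ifng, the interferon gamma gene of activated T cells (named after its values were seen), was 1.98-fold higher in the Nrn1-/- library, at 27.7 and 54.9 FPKM.

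Receptor and signalling genes were all lower in the Nrn1-/- library (6 of 6, median log2 ratio -0.42). Ifnar1 was at 39.0 and 27.8 FPKM and Ifnar2 at 28.6 and 23.7 FPKM. Of the kinases, Jak1 was at 103 and 79.97 FPKM and Tyk2 at 22.2 and 19.6 FPKM. The factors downstream differed more, with Stat2 at 38.1 and 25.2 FPKM and Irf9 at 64.4 and 41.1 FPKM, 1.51 and 1.57-fold lower. On the log2 scale with the pseudocount Irf9 was the 1 gene of the list beyond 1.5-fold.

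Interferon regulatory factors, which bind related elements, went in both directions. Irf7, itself an interferon target and the amplifier of the type I response, was at 59.3 and 33.7 FPKM, 1.76-fold lower. Irf8, better known from myeloid and B cells but also present in T cells, was the reverse at 147 and 276 FPKM, 1.88-fold higher. Irf1 (296 and 242 FPKM), Irf2 (48.0 and 37.4 FPKM) and Irf3 (92.4 and 82.0 FPKM) were lower by smaller ratios. Irf5 (11.98 and 12.7 FPKM) differed little, and its direction turned in 3 of 4 rescalings.

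Nucleic acid sensors and adaptors were divided, 7 lower and 6 higher of 13 past the filter (median -0.03). That balance moved to 9 and 4 with upper-quartile scaling and with equal sums over protein-coding rows. It was 10 and 3 when libraries were rescaled to a sum of 1000000. The RNA sensor gene Ddx58 (RIG-I) was at 21.4 and 13.1 FPKM, 1.63-fold lower, and the endosomal sensor gene Tlr7 at 4.68 and 2.48 FPKM, 1.88-fold lower. Zbp1, the most abundant of the list with a sensor of Z-form nucleic acid as its product, was at 150 and 101 FPKM, and the kinase gene Ikbke at 83.9 and 61.9 FPKM. Ifih1 (MDA5), the sister sensor of RIG-I and also an interferon target, was higher at 12.8 and 17.1 FPKM, as it was in each of the 4 rescalings. The adaptor gene Tmem173 (STING), at 91.9 and 107 FPKM, turned direction at a sum of 1000000.

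Oligoadenylate synthetase genes were lower in 5 of 5 past the filter, with a median of -0.52. That median was -0.24 with a pseudocount of 5 FPKM, -0.36 with a filter at a mean of 5 FPKM and -0.79 at a sum of 1000000, where the 9, 8 and 9 effectors past the filter had -0.45, -0.70 and -0.81. Oas1c (6.39 and 3.67 FPKM) was beyond 1.5-fold, while Oas1a (6.61 and 5.62 FPKM) and Oas3 (6.03 and 5.16 FPKM) differed by under 1.2-fold. Oas1b, the most abundant synthetase gene at 16.9 and 11.4 FPKM and known for a truncated product in C57BL/6 mice, lay between. The Oas1 genes are close copies of one another, so their single values are uncertain.

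In the broad list of 46 other interferon-induced genes found in the files, 40 passed the filter, 34 of them lower and 6 higher (median -0.39). At least 1.5-fold lower were 12: Ifi27, Ifi27l2a, Xaf1, Samd9l, Ddx60, Samhd1, Phf11b, Ifi203, Pyhin1, Trim30a, Trim30d and Trim34a. Samhd1, which destroys nucleotides needed by retroviruses, was at 748 and 415 FPKM, 1.80-fold lower, and Ifi27l2a at 506 and 319 FPKM. Shisa5 (1511 and 1072 FPKM) and Ly6e (996 and 867 FPKM), with Samhd1 the most abundant of the list, were lower by 1.41 and 1.15-fold. Going the other way by at least 1.5-fold were Ifi30, a lysosomal thiol reductase gene (36.0 and 65.4 FPKM), and Mnda, which was near the filter (0.401 and 1.87 FPKM). Higher by less were the tetherin gene Bst2 (163 and 204 FPKM), Ifitm2 (44.0 and 59.4 FPKM), Tor3a (7.88 and 8.95 FPKM) and Apobec3 (153.7 and 154.1 FPKM). Tor3a turned direction at a sum of 1000000 and Apobec3 in each of the 4 rescalings.

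**Figure D5:**
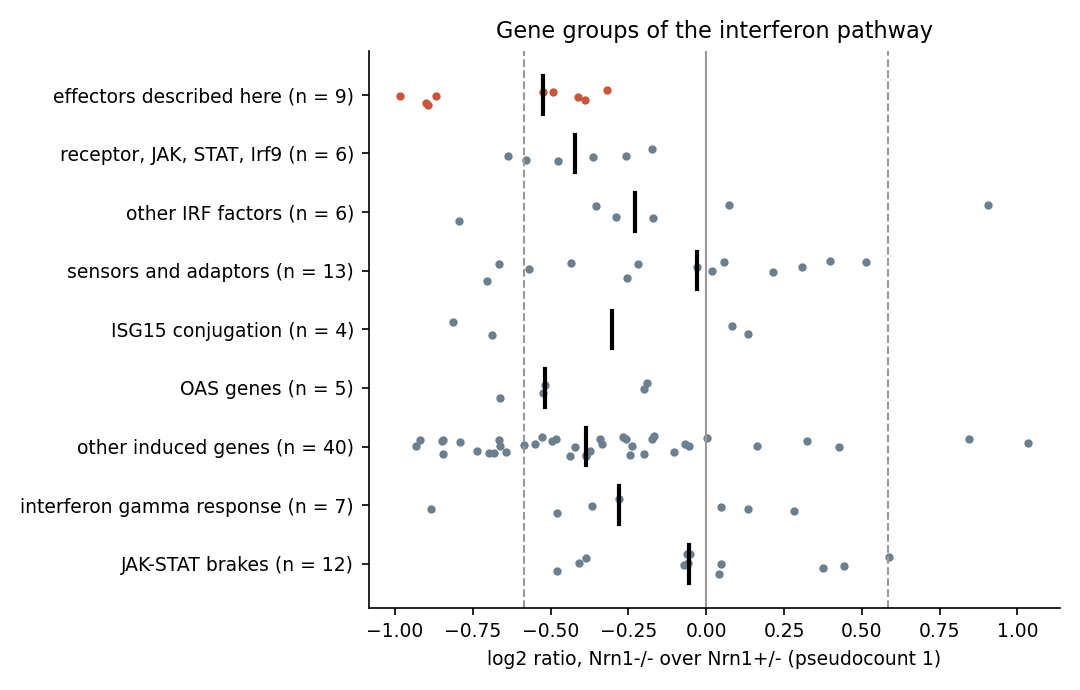
Log2 ratio (pseudocount of 1 FPKM) of every gene past the filter in the 9 effectors (red) and 8 other gene lists of the pathway (grey), 1 point per gene, with black bars at list medians and dashed lines at 1.5-fold. Receptor and signalling genes, with a median of -0.42, and OAS genes, with a median of -0.52, lie wholly below 0 like the effectors, while sensors and JAK-STAT brakes fall on both sides.

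Pooled without the 10 effectors, the paralogs, receptor and signalling genes, IRF factors, sensors, ISG15 enzymes, OAS genes and other induced genes came to 77 genes past the filter. Of these 60 were lower and 17 higher in the Nrn1-/- library, 21 and 3 of them by at least 1.5-fold. Their median log2 ratio was -0.35, between that of the 9 effectors and that of all genes, as deposited and before any rescaling. Of all genes past the filter 47.7% were lower, 5.27% at least 1.5-fold lower and 7.5% at least 1.5-fold higher. As the lists were drawn up with earlier results of these data known, nothing is read from the pooled counts.

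The list of genes better known from the interferon gamma response went in both directions as deposited. It holds receptor chains and a kinase gene besides induced genes, so it does not show whether a response followed the higher Ifng. Of 7 past the filter 4 were lower and 3 higher (median -0.28). These became 5 and 2 with upper-quartile scaling and with equal sums over protein-coding rows. With a sum of 1000000, where 8 passed, all 8 were lower. Ifngr1, the ligand-binding receptor chain, was at 323 and 175 FPKM, 1.85-fold lower, while Serpina3g (94.8 and 116 FPKM) was higher and turned at a sum of 1000000. Socs1, an inhibitor of JAK kinases induced by both interferons, differed little at 203 and 210 FPKM. In the list of JAK-STAT brakes, which holds Socs1 too, 7 of 12 were lower and 5 higher (median -0.06). This became 9 and 3 with upper-quartile scaling, at a sum of 1000000 and with equal sums over protein-coding rows. Ptpn6, the phosphatase SHP-1, was the 1 gene beyond 1.5-fold there (74.7 and 113 FPKM, higher), and stayed short of it in each of the 4 rescalings. Socs2 (142 and 136 FPKM) and Cish (193 and 186 FPKM), targets of cytokine signalling through STAT proteins and the other abundant brakes, were at nearly equal levels.

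Other measured features moved alongside the effectors. The 10 cycling-cell markers were all higher with Nrn1-/- by 1.5-fold or more, summing to 627 and 1312 FPKM, and 9 of the 10 sorted-cell markers were lower (median -0.30). Markers of plasmacytoid dendritic cells, a major source of type I interferon, summed to 153 and 283 FPKM, of which Irf8 alone was 147 and 276 FPKM, and the defining genes Siglech and Klk1 were listed at 0 in both libraries. The other 5 of that list were Tcf4 (3.53 and 4.91 FPKM), Ly6d (0.542 and 0.836 FPKM) and Spib (0.304 and 0.369 FPKM), all higher, and Ccr9 (1.09 and 0.669 FPKM) and Cox6a2 (0.562 and 0 FPKM), both lower. The 8 B cell markers were all higher, summing to 6.25 and 8.59 FPKM. Most of that was Cd79b (4.85 and 5.14 FPKM), whose direction turned in 3 of 4 rescalings, and 6 of the 8 were under 1 FPKM in both libraries. Markers of myeloid cells summed to 8.57 and 7.21 FPKM with S100a8 and S100a9 at 0 in both, those of conventional dendritic cells to 3.04 and 2.41 FPKM with Clec9a and Cd209a at 0 in both, those of NK cells to 6.24 and 6.32 FPKM, those of CD8 T cells to 4.92 and 3.93 FPKM and those of red cells to 0.636 and 0.217 FPKM. Their part in the effector values was not tested, and with 1 library each, genotype, mouse, sort and library cannot be told apart.

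For the 10 effectors, scaling changed the size of the differences and not their direction. Rescaling each library to a sum of 1000000 moved the median of all genes from 0.02 to -0.25, and all 9 effectors past the filter then reached 1.5-fold, with a median of -0.81. As deposited, all rows summed to 645876 and 790935 FPKM, but protein-coding rows to 593035 and 647545 FPKM. The highest single row was at 12034 and 71091 FPKM. This rescaling thus depends much on noncoding rows. The share of all genes at least 1.5-fold lower and higher was 17.6% and 3.27% there, 7.14% and 5.52% with upper-quartile scaling and 8.63% and 4.83% with equal sums over protein-coding rows, against 5.27% and 7.5% as deposited. All 10 effectors stayed lower under each of these and after the median of all genes was set to 0, which these shifts could not have changed.

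For orientation, the 5 protein-coding genes outside every list whose ratio was nearest to the effectors' median were Gm4955 (43.8 and 23.5 FPKM), Fbxl12 (34.2 and 18.4 FPKM), Usp11 (11.4 and 6.14 FPKM), Frat2 (14.2 and 7.67 FPKM) and Cd86 (9.51 and 5.16 FPKM). Likeness here is the distance between log2 FPKM ratios over 2 libraries, and 53 of 8347 genes with at least 5 FPKM in both came within 0.1 of that median.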

How the data were processed

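Messenger RNA of 2 sorted effector Treg cell samples was measured, 1 per genotype, and the genotype label gave the group. The deposited values are FPKM per gene, computed by the authors. The submitters' processing notes list TopHat, Cuffdiff, Cuffnorm and FastQC and the builds mm10 and GRCm38, and Cuffnorm's output and the values point to FPKM. Neither notes nor labels give tool versions, the annotation, the strand setting or how libraries were scaled.

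The genes and lists were chosen with earlier results of these data known. Rows of the 82 symbols with several rows were summed. Log2 ratios used a pseudocount of 1 FPKM, a filter at a mean of 1 FPKM and a threshold of 1.5-fold. With 1 library a group there was no test. The text names all effectors, receptor, signalling and ISG15 genes, and of the other lists those past 1.5-fold and the 3 most abundant. Ifng, Ifih1, Irf2, Irf5, Cmpk2, Bst2, Ifitm2, Tor3a, Apobec3, markers and chromosome neighbours were named after their values were seen.

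The worth of 1 fragment was the spacing that put low values of single-transcript genes over 1000 bases, times length less 230 bases, within 0.1 of whole multiples up to 5 (99.3% of 1217 and 98.9% of 1219 genes). Fragments of an effector used its shortest protein-coding transcript in the GENCODE M21 basic set, and exact binomial 95% intervals of the ratio cover counting error only. The steps were tested on simulated data. Positions are the deposited intervals with 1 added to the start, since 28112 of 46000 matched starts then equal GENCODE and 218 do without. Overlapping genes can share one interval. Python 3.11.15, numpy 2.4.6, pandas 2.3.3 and scipy 1.17.1 were used. Alternatives were 2 other pseudocounts, 4 rescalings, 2 other filters, a 2-fold threshold, the highest row per symbol and full transcript length. The listed genes Ifi208, Ifi209 and Ifi213 and a planned comparison of protein sequences are not analysed here, and 2 genes of the planned lists are not reported here.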

Additional observations from a re-analysis of the deposited data

How the results depend on the processing

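All 10 effector genes were lower in the Nrn1-/- library under each of the 7 alternatives that recompute single ratios, but none of these could have turned them. Another pseudocount keeps the sign of a ratio, each effector has 1 row, and the 4 rescalings all moved ratios down. The agreement in direction is therefore no check of it. The count of 4 effectors at least 1.5-fold lower became 9 at a sum of 1000000 over all rows and 0 with a 2-fold threshold, and lay at 4 or 5 elsewhere. The median log2 ratio of -0.53 became -0.82 with a pseudocount of 0.1 FPKM, -0.81 at a sum of 1000000 and -0.70 with a filter at a mean of 5 FPKM, which drops Oasl1, and lay between -0.45 and -0.64 under the others. Of 238 recomputed values of single effectors, lists and fragments, 177 stayed close to the reported one, 61 moved and 0 of those past 1.5-fold turned direction. That 0 says little, since the effector ratios could not turn and counts have no direction. Single genes of the other lists, some of which turned when rescaled, are not among the 238. Receptor and signalling genes at least 1.5-fold lower went from 1 to 4, and other induced genes from 12 to 26, at a sum of 1000000. Full transcript length raised the estimated fragments of Isg15 in the Nrn1+/- library from 1096 to 1575. Depth limits Rsad2 and Oasl1 most. No paired analysis was possible because each genotype has 1 library.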

Other observations

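Genes that lie beside the effectors on the chromosome were looked at after their values were seen. Up to 100000 bases away from the 10 lay 18 coding genes that pass the filter and belong to none of the lists. As deposited, 11 of these were lower in the Nrn1-/- library, with none at least 1.5-fold lower or higher. Their log2 ratios ran from -0.36 to 0.56 with a median of -0.12. Lipa, a lysosomal lipase gene upstream of the IFIT cluster, was at 13.4 and 11.9 FPKM. Beside Isg15, the nucleolar gene Noc2l was at 90.3 and 133 FPKM and Agrn at 3.15 and 2.80 FPKM. Aen, next to Isg20, was at 62.2 and 70.9 FPKM. Larger differences near the effectors, by FPKM ratio, were those of Ifit1bl1, Ifit3b and Cmpk2, which are in the lists, and of RP23-27C9.6, the noncoding row that overlaps Usp18.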
